A study of Mus musculus with 8 samples.

Results

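The FGF and ERK feedback genes are 10 genes of 1 signalling loop: the ligand Fgf4, the receptors Fgfr1 and Fgfr2, the inhibitors Spry2, Spry4, Spred1, Dusp4 and Dusp6, and the transcription factors Etv4 and Etv5. They were chosen by name, as every probe set that the platform annotation gives to 1 of these symbols, which took 31 of 45037 probe sets and 10 of 18193 measured genes. A gene's value is that of the probe set whose mean over the 8 arrays is highest, and every value below is a log2 value from robust multichip averaging (RMA) unless another scale is named.

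RNA from 8 lines of mouse ESCs was hybridised to Affymetrix arrays, 1 per line. The lines were 3 Zfp281 null lines (7, 3.34 and 3.38), 2 heterozygous lines (5 and 3.1) and 3 wild-type lines (3, 3.2 and 3.3), all untreated. In the mutant allele the whole coding region of Zfp281, a zinc finger transcription factor, is gone. Targeting put a floxed neomycin resistance cassette in its place, which Cre recombinase can remove, and the labels do not say in which lines the cassette remains. Null lines carry the mutation on both alleles, heterozygous lines on 1 allele, and lines of all genotypes grew out of blastocysts from matings between heterozygous mice. Null line 7 and wild-type line 3 come from 1 litter, and null line 3.38 and wild-type line 3.3 from another. The comparison asks how loss of Zfp281 bears on the ESC transcriptome. Per the labels, the cells grew on mouse embryonic fibroblast feeders with serum and LIF, so each array can hold RNA of feeders beside that of ESCs. Since 1 array stands for each line, the spread within a genotype holds line differences and technical error together, and the number of lines limits the precision of each value.

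Mouse ESCs secrete Fgf4, which acts on their own FGF receptors and, through RAS and the MEK and ERK kinases, makes them ready to leave self-renewal. Active ERK raises transcription of its own inhibitors, the Sprouty and Spred proteins and the dual specificity phosphatases, and of the ETS factors Etv4 and Etv5. The mRNA levels of these inhibitors and ETS factors are therefore widely used as a readout of FGF and ERK activity in ESCs.

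Zfp281 itself was at 3.64 to 5.23 in null lines, 6.69 to 6.97 in heterozygous lines and 6.72 to 7.93 in wild-type lines. The ESC markers Pou5f1, Sox2, Nanog, Zfp42 and Fbxo15 were called present in every line, and Utf1 in none. Of 18 feeder fibroblast markers, 12 to 16 were called present in null lines, 14 to 17 in heterozygous lines and 10 to 17 in wild-type lines. Their summed linear signal was 2813 to 3373 in null lines, 6091 to 6328 in heterozygous lines and 3393 to 5053 in wild-type lines, and no marker of the list was absent from every line. The control probe sets for the 3′ ends of Gapdh and beta-actin exceeded those for the 5′ ends, a gap that widens with shorter cDNA, by log2 values of 2.68 to 3.71 in null lines, 4.49 to 4.80 in heterozygous lines and 4.23 to 4.86 in wild-type lines. Genotype and this gap therefore run together between null lines and the other lines.

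Of the 10 genes, 1 passed an adjusted p of 0.05 between null and wild-type ESCs, and it rose. This was Etv4, and across all genes 1.13% passed, 0.693% with a higher level in null ESCs. The null and wild-type lines did not overlap for 5 of the 10 genes, against 22.4% of all genes and 33.6% of the 7306 detected genes, those called present in all lines of 1 genotype or more. Of those 5, Fgf4, Etv4 and Etv5 were higher in null lines (11.1% of all genes), and Fgfr1 and Fgfr2 were lower (11.2% of all genes). On the linear signal scale the null and wild-type lines of Fgfr2 overlapped. All 5 had an unadjusted p under 0.05, as did 16.4% of all genes. The median log2 difference between null and wild-type ESCs was −0.32 over the 10 genes and −0.01 over all genes, with 4 means higher and 6 lower. The 10 genes were chosen with earlier results of these data known, so their counts beside the shares of all genes are a description only.

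**Figure D1:**
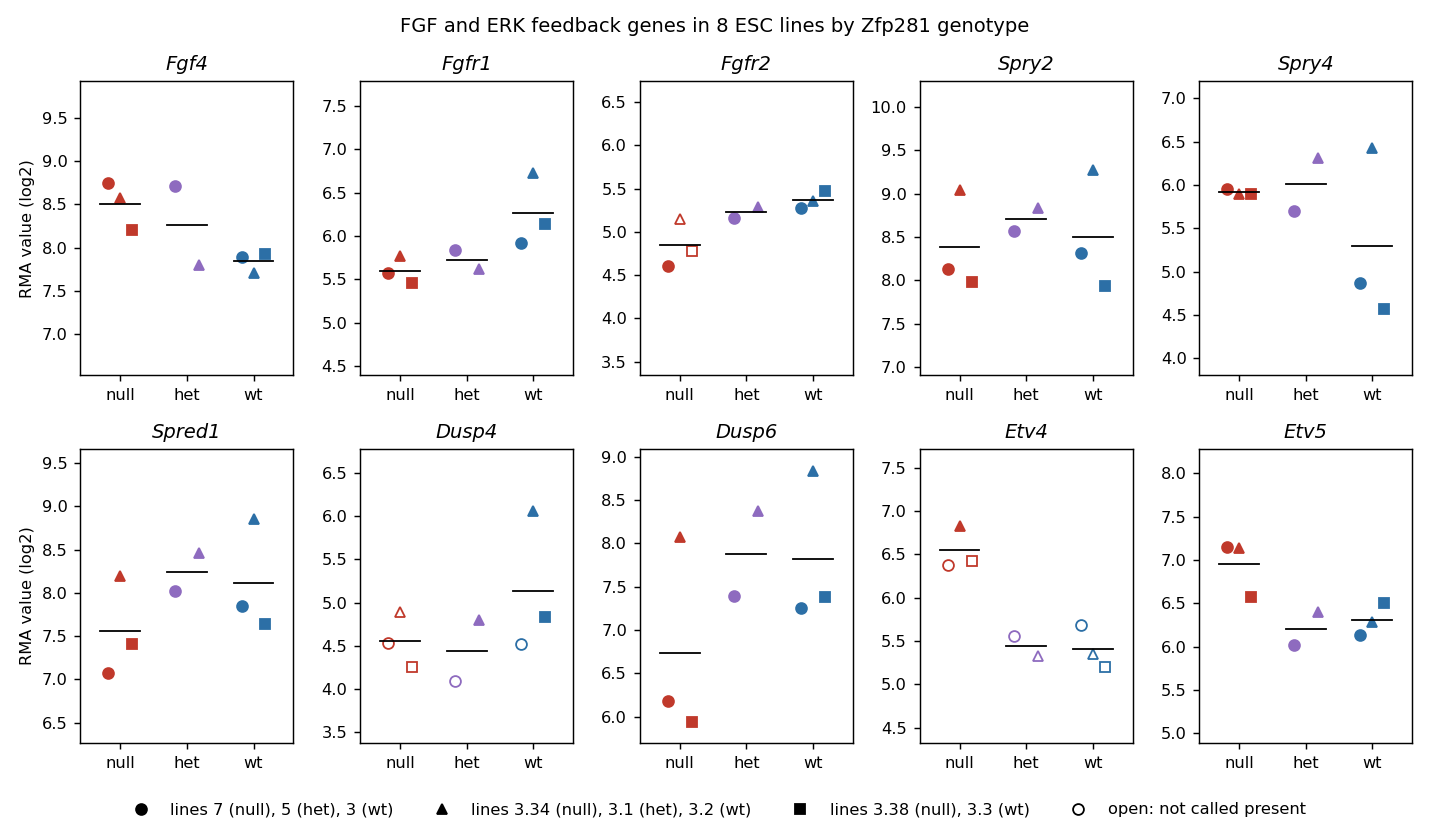
RMA log2 values of the 10 genes (y axis) in 8 ESC lines, 1 point for each line, with null, heterozygous (het) and wild-type (wt) lines from left to right, horizontal bars at the genotype means, filled points for lines in which the probe set was called present, and the same length of log2 scale in every panel. Null lines lie above all wild-type lines for Fgf4, Etv4 and Etv5 and below them for Fgfr1 and Fgfr2, and Dusp6 ranges from 5.94 to 8.84.

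Fgf4, the ligand, was at 8.74, 8.58 and 8.21 in null lines 7, 3.34 and 3.38, at 8.71 and 7.81 in heterozygous lines 5 and 3.1, and at 7.89, 7.71 and 7.92 in wild-type lines 3, 3.2 and 3.3. All null lines were above all wild-type lines, while the heterozygous lines were split on the RMA scale, 1 among the null lines and 1 among the wild-type lines. On the linear signal scale of the Affymetrix software both heterozygous lines, at 338.9 and 225.6, were above all wild-type lines, the highest of which was at 188.8. The RMA log2 difference between null and wild-type ESCs was 0.67 (95% interval 0.14 to 1.20, standard error 0.23, adjusted p = 0.193 from limma), so the difference did not pass after adjustment over all genes. The 6 ESC markers all had a higher mean in null ESCs as well, with a median log2 difference of 0.54. None of these markers was called by limma, and 4 had an unadjusted p under 0.05, against 16.4% of all genes. Pou5f1, the pluripotency factor Oct4, had the greatest difference of them, 1.29 (adjusted p = 0.0715 from limma). Their part in the Fgf4 value was not tested. Whether more of the cells made Fgf4 or each cell held more Fgf4 mRNA cannot be told apart in RNA of whole cultures, and the same holds for every gene below.

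Fgf4 has 4 probe sets, and their differences were not all alike. A second one, at 8.68, 8.53 and 8.13 in null lines and 7.65, 7.55 and 7.95 in wild-type lines, gave a log2 difference of 0.73 (adjusted p = 0.199 from limma on the probe sets), again with no overlap. The remaining probe sets had lower values and overlapping lines. The first of them, called present in every line, gave a log2 difference of −0.24, and the other, called present in some lines only, gave 0.08. The sources used here do not say which part of the transcript each one covers.

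RefSeq places the start of Fgf4 on the plus strand of GRCm38.p6, and the 250 bases before it, chr7:144861136-144861385, are shown because Fgf4 is the member through which ESCs signal to themselves. Capitals mark matches, on either strand, to the CCAAT box (CCAAT), the GC box (GGGCGG) and a TATA element (TATANAN, where N is any base):
Fgf4: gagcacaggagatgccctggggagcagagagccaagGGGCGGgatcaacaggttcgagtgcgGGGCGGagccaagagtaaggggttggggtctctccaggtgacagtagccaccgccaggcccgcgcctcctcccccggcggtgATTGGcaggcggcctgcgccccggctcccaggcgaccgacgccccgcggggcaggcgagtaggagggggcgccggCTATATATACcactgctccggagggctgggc

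This stretch holds 2 GC boxes, 1 CCAAT box read on the opposite strand and 1 run of overlapping TATA matches near its end. Of 27025 windows of the same length before mouse gene starts, 33% hold a GC box, 34.5% a CCAAT box and 23.4% a TATA match. The G-rich octamer GGGGAGGG, of the kind Zfp281 is known to bind, has no match in it and is found in 9.38% of all windows. A match is a run of letters and says nothing of binding, and the absence of one covers only this window.

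The FGF receptors, unlike their ligand, had lower values in null lines. Fgfr1, a receptor tyrosine kinase, was at 5.57, 5.77 and 5.46 in null lines 7, 3.34 and 3.38, at 5.83 and 5.62 in heterozygous lines 5 and 3.1, and at 5.92, 6.72 and 6.14 in wild-type lines 3, 3.2 and 3.3. Null and heterozygous lines were all below all wild-type lines on the RMA scale. On the linear signal scale of the Affymetrix software the values were 58.2, 69.7 and 35.4 in null lines, 105.1 and 90.2 in heterozygous lines, and 72.5, 82.8 and 76.3 in wild-type lines, so the null lines were again the lowest but the heterozygous lines were above all wild-type lines. The RMA log2 difference was −0.66 between null and wild-type ESCs (95% interval −1.12 to −0.20, standard error 0.20, adjusted p = 0.148 from limma).

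Fgfr2, the receptor whose level is known to rise in the primitive endoderm of the blastocyst, was at 4.61, 5.15 and 4.78 in null lines 7, 3.34 and 3.38, at 5.16 and 5.28 in heterozygous lines 5 and 3.1, and at 5.27, 5.35 and 5.47 in wild-type lines 3, 3.2 and 3.3. It was called present in 1 of 3 null lines and in all heterozygous and wild-type lines. The null values thus lie near the limit of detection, and the difference from them is approximate. On the RMA scale the null lines were below all others. On the linear signal scale the values were 23.5, 60.4 and 22.5 in null lines, 39.2 and 75.0 in heterozygous lines, and 43.5, 40.8 and 60.7 in wild-type lines. There null line 3.34 was above wild-type lines 3 and 3.2 and heterozygous line 5, so the genotypes overlapped. The RMA log2 difference between null and wild-type ESCs was −0.52 (95% interval −0.86 to −0.18, standard error 0.15, adjusted p = 0.127 from limma). The other probe sets of both receptors had lower values and gave log2 differences between −0.23 and 0.06 with overlapping lines.

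Most feeder markers and all primitive endoderm markers also had lower means in null ESCs. Of the 18 feeder markers, 17 had a lower mean in null than in wild-type ESCs, with a median log2 difference of −0.45. None of the 18 was called by limma, and 4 had an unadjusted p under 0.05, against 16.4% of all genes. All 13 primitive endoderm markers had a lower mean, with a median of −0.47, against −0.01 over all genes. Of the 13, 3 had an unadjusted p under 0.05 and 1 was called by limma, as were 1.13% of all genes. This was the laminin gene Lamb1, which fell by 1.25 on the log2 scale (adjusted p = 0.0384 from limma). The summed signal of those 13 was 1041 to 1593 in null lines, 1639 to 2106 in heterozygous lines and 1487 to 4094 in wild-type lines. The 9 trophectoderm markers were mixed, with 6 means lower, 3 higher and a median of −0.049. None of the 9 was called by limma, and 2 had an unadjusted p under 0.05. The part of these cell types in the receptor values was not tested.

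Etv4 and Etv5, ETS factors of the PEA3 family that FGF signals are known to induce, were both higher in null lines. Etv4 was at 6.38, 6.83 and 6.42 in null lines 7, 3.34 and 3.38, at 5.56 and 5.33 in heterozygous lines 5 and 3.1, and at 5.68, 5.36 and 5.20 in wild-type lines 3, 3.2 and 3.3. All null lines stood above all other lines. It rose in null ESCs with a log2 difference of 1.13 from wild-type ESCs (95% interval 0.74 to 1.52, standard error 0.17, adjusted p = 0.0370 from limma).

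Etv4 was near the limit of detection, being called present in null line 3.34 alone, so its level was measured in 1 of 3 null lines and in no other line, and the size of the difference is approximate. On the linear signal scale of the Affymetrix software it was at 19.3, 64.3 and 32.0 in null lines, at 4.7 and 2.5 in heterozygous lines, and at 8.4, 2.9 and 1.1 in wild-type lines. The null lines stood above all other lines on both scales.

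The call for Etv4 was lost when certain lines were left out. Without null line 7 the adjusted p from limma was 0.124, without wild-type lines 3, 3.2 or 3.3 it was 0.0766, 0.101 or 0.0530, and without any 1 of the other lines it was 0.0479 to 0.0495. The log2 difference stayed between 0.99 and 1.27 in all of these. Over the 4 lines of the litter pairs it was 0.96, with an adjusted p of 0.0818 from limma with litter as a block and 0.0765 without the block. Its second probe set, with lower values, gave a log2 difference of 0.15 with overlapping lines.

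Etv5 was at 7.15, 7.15 and 6.57 in null lines 7, 3.34 and 3.38, at 6.02 and 6.39 in heterozygous lines 5 and 3.1, and at 6.13, 6.28 and 6.50 in wild-type lines 3, 3.2 and 3.3. It was called present in every line, and its lowest null line was 3.38, just above wild-type line 3.3. The log2 difference between null and wild-type ESCs was 0.65 (95% interval 0.21 to 1.08, standard error 0.19, adjusted p = 0.133 from limma). Between null and heterozygous ESCs it was 0.75 (adjusted p = 0.155 from limma), also with no overlap on the RMA scale. On the linear signal scale heterozygous line 3.1, at 180.6, was above all null lines, the highest of which was at 176.7. The other Etv5 probe sets gave differences of −0.11 and 0.02 between null and wild-type ESCs, with overlapping lines.

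The 250 bases before the RefSeq start of Etv5, on the minus strand at chr16:22439571-22439820 of GRCm38.p6, are printed for comparison with Fgf4, the other gene present in all lines whose null lines were all higher. Capitals mark the same motifs as above:
Etv5: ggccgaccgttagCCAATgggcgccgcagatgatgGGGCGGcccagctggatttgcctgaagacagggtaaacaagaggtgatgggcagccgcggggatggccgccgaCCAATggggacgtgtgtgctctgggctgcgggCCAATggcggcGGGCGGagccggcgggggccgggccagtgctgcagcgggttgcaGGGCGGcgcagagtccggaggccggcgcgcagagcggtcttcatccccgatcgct

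This window holds 3 CCAAT boxes and 3 GC boxes and no TATA match, and 71.2% of its bases are G or C, the same share as for Fgf4. RefSeq promoters were matched for 6 of the 10 genes (Fgf4, Fgfr2, Spry2, Spred1, Dusp6 and Etv5). In none of the 6 windows was there a match to the ETS motif CCGGAA, to GGGGAGGG or to the AP-1 element TGANTCA, which 12.3%, 9.38% and 6.85% of all windows hold. Shorter ETS sites such as GGAA were not searched for, so the windows can hold them.

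**Figure D2:**
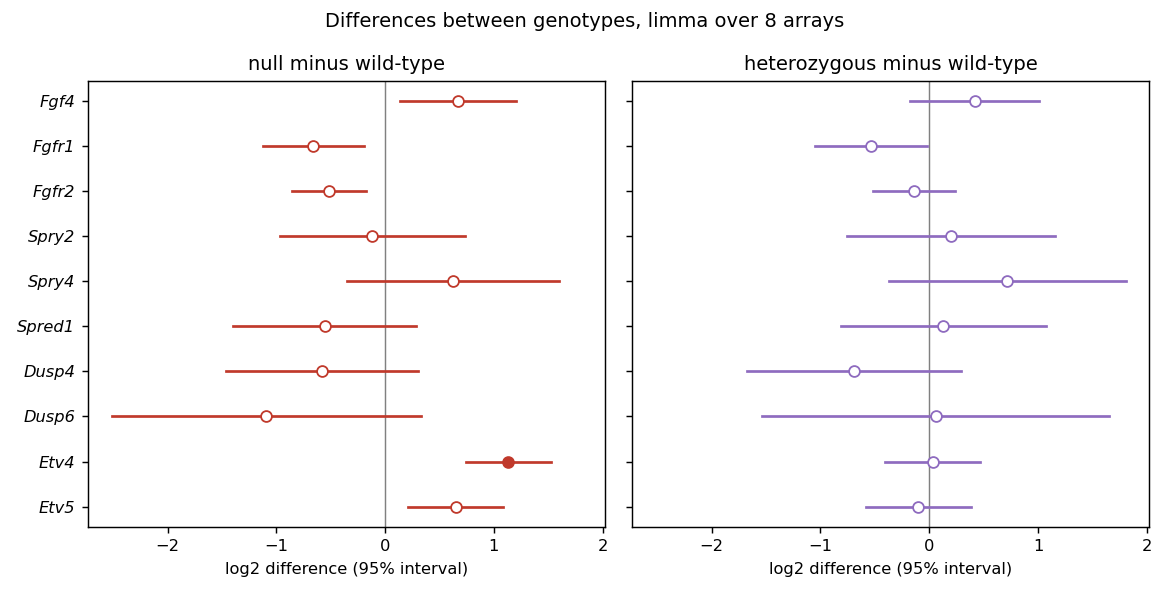
Log2 differences (x axis) of the 10 genes from limma over 8 arrays with 95% intervals, null minus wild-type on the left and heterozygous minus wild-type on the right, filled where the adjusted p was under 0.05. Etv4 at 1.13 is the 1 filled point, and the interval of Dusp6, −2.52 to 0.33, is the widest for null minus wild-type.

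Over all lines the feedback inhibitors gave no call between genotypes, and their lines spread far more than those of the other members. Dusp6, the cytoplasmic phosphatase of ERK, was at 6.18, 8.07 and 5.94 in null lines 7, 3.34 and 3.38, at 7.39 and 8.38 in heterozygous lines 5 and 3.1, and at 7.25, 8.84 and 7.38 in wild-type lines 3, 3.2 and 3.3. Null lines 7 and 3.38 were below all other lines, but null line 3.34 was above 3 of the other 5. The log2 difference between null and wild-type ESCs was −1.09 (95% interval −2.52 to 0.33, standard error 0.62, adjusted p = 0.463 from limma). It was −1.76 without null line 3.34, −0.70 without null line 3.38 and −0.58 without wild-type line 3.2.

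The 2 litter pairs leave out null line 3.34 and wild-type line 3.2, the highest lines of their genotypes for Dusp6. In them Dusp6 was at 6.18 in null line 7 against 7.25 in wild-type line 3, and at 5.94 in null line 3.38 against 7.38 in wild-type line 3.3. Over these 4 lines, a set chosen after the data were seen, the log2 difference was −1.26 and passed limma's test. The adjusted p from limma was 0.0464 with litter as a block and 0.0377 without it. Of 18193 genes, 178 were called with the block and 198 without it. Dusp6 was thus called over these lines with and without the block, which left 1 residual degree of freedom.

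The means of 2 of the 10 genes, Dusp6 and Etv4, differed by over 2-fold between null and wild-type ESCs, against 2.47% of all genes. That count was 1 without any 1 of the 3 null lines. Without lines 7 or 3.38 it was Dusp6 that no longer passed, and without line 3.34 it was Etv4, at 0.99.

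Spred1, which brings neurofibromin to the membrane to switch RAS off, was at 7.07, 8.19 and 7.41 in null lines 7, 3.34 and 3.38, at 8.02 and 8.46 in heterozygous lines 5 and 3.1, and at 7.84, 8.85 and 7.64 in wild-type lines 3, 3.2 and 3.3. The genotypes overlapped, and the log2 difference between null and wild-type ESCs was −0.56 (95% interval −1.40 to 0.29, standard error 0.37, adjusted p = 0.547 from limma). Of its 8 probe sets, 4 were called present in every line, and these gave differences between −0.56 and −0.07.

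Spry2, a Sprouty protein that blocks signalling between receptor and RAS, was at 8.13, 9.05 and 7.98 in null lines 7, 3.34 and 3.38, at 8.57 and 8.84 in heterozygous lines 5 and 3.1, and at 8.31, 9.27 and 7.93 in wild-type lines 3, 3.2 and 3.3. The null and wild-type lines covered nearly the same range. The log2 difference was −0.12 (95% interval −0.97 to 0.74, adjusted p = 0.938 from limma).

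Dusp4, a nuclear phosphatase of ERK, was at 4.53, 4.89 and 4.25 in null lines 7, 3.34 and 3.38, at 4.09 and 4.79 in heterozygous lines 5 and 3.1, and at 4.52, 6.05 and 4.83 in wild-type lines 3, 3.2 and 3.3. It was called present in heterozygous line 3.1, wild-type lines 3.2 and 3.3 and no null line, so its null level was not measured. The log2 difference of −0.58 between null and wild-type ESCs did not pass the test (adjusted p = 0.545 from limma) and was −0.12 without wild-type line 3.2. Wild-type line 3, in which it was not called present, was below null line 3.34.

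Spry4, a second Sprouty protein, had the opposite sign. It was at 5.96, 5.89 and 5.89 in null lines 7, 3.34 and 3.38, at 5.70 and 6.31 in heterozygous lines 5 and 3.1, and at 4.87, 6.43 and 4.57 in wild-type lines 3, 3.2 and 3.3. The SD was 0.04 over the null lines and 1.00 over the wild-type lines (n = 3 each), where line 3.2 was far above the others. The log2 difference between null and wild-type ESCs was 0.62 (95% interval −0.35 to 1.60, adjusted p = 0.561 from limma). It was 1.19 without wild-type line 3.2 (adjusted p = 0.0852 from limma). Without wild-type line 3 it was 0.41, and without line 3.3 it was 0.26 (adjusted p = 0.832 and 0.851 from limma). Over the 4 lines of the litter pairs, a set without line 3.2 that was chosen after the data were seen, it was 1.20. The adjusted p from limma was 0.0458 with litter as a block and 0.0377 without the block. Of 18193 genes, 178 were called with the block and 198 without it. A second Spry4 probe set present in every line gave 0.50, with wild-type line 3.2 again the highest of its genotype. The probe set called present in some lines only gave 0.39, with line 3.2 the lowest wild-type line. That called present in no line gave −0.06.

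Spry2, Spred1, Dusp4 and Dusp6 shared an order of lines within each genotype: 3.34 was the highest null line, 3.1 was above 5 among the heterozygous lines, and 3.2 was the highest wild-type line. This pattern was noticed after the values were seen and is given as a description. It held for 4 of the 10 genes against 11% of all genes, and for 3 of the 8 detected members against 9.53% of detected genes. On the linear signal scale, with each array centred on its median, it held for Spred1, Dusp4 and Dusp6, 3 of the 10 genes, and for 7.12% of all genes. None of the 10 had the mirror order (3.34, 3.1 and 3.2 lowest), which 8.16% of all genes had. The order was not limited to inhibitors, since among detected genes it held for 3 of 7 other receptors and adaptors (Sos1, Ptpn11 and Gab1), 2 of 9 cascade genes (Nras and Pebp1) and 2 of 9 immediate early targets (Srf and Phlda1). In the same lists the mirror order held for 0 of 7, 2 of 9 and 1 of 9 detected genes.

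The spread of the inhibitors within genotypes was wide. The SD within genotypes was 0.98 for Dusp6, at percentile 99.8 of all genes, 0.66 for Spry4, 0.59 for Dusp4, 0.58 for Spry2 and 0.57 for Spred1, all at or above percentile 97.6. It was 0.19 to 0.34 for Fgf4, Fgfr1, Fgfr2, Etv4 and Etv5, against a median of 0.17 over all genes and 0.25 over detected genes. Over the 8 lines, with each genotype set to its own mean, the 6 pairs among Spry2, Spred1, Dusp4 and Dusp6 correlated with r between 0.84 and 0.95. These 4 were grouped for their shared order of lines in the same values, so a high r among them was largely fixed in advance. Spry4, which lacks that order, had an r of 0.88 with Dusp4, itself called present in 3 of 8 lines. All points share their arrays. From the 5th to the 95th percentile of detected genes the r with Dusp6 ran over −0.80 to 0.80 and that with Dusp4 over −0.83 to 0.83. Outside these 4, the r with Dusp6 was 0.69 for both Fgfr1 and Fgfr2, 0.61 for Spry4, 0.48 for Etv5, 0.30 for Etv4 and −0.27 for Fgf4, and that of Fgfr1 with Dusp4 was 0.81. The receptors thus followed Dusp6 about as closely as the inhibitor Spry4 did.

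**Figure D3:**
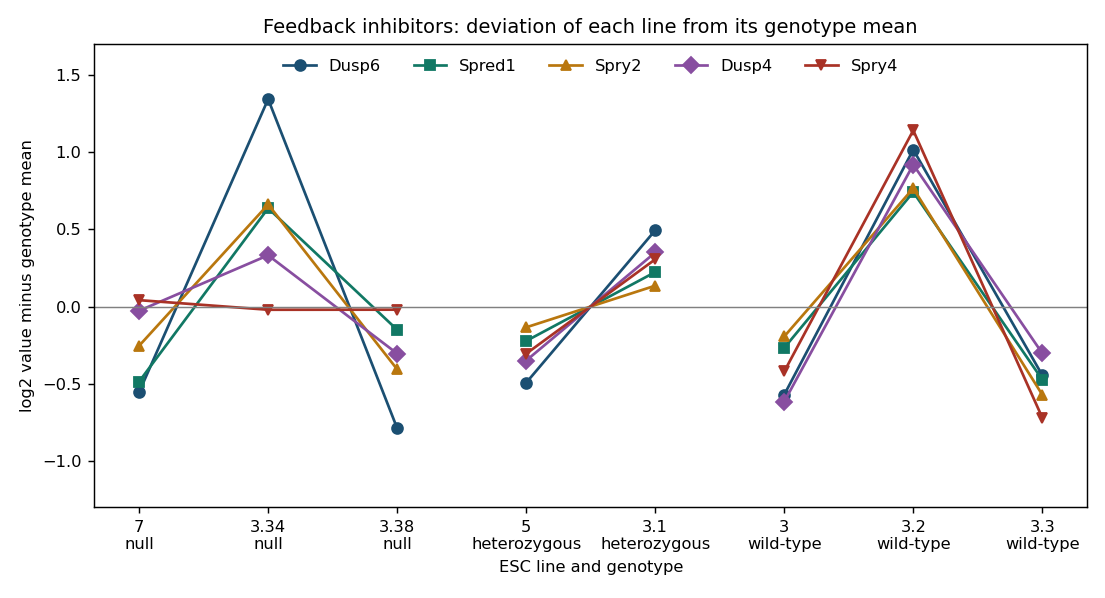
Log2 value of each line minus the mean of its genotype (y axis) for 5 feedback inhibitors, with null lines on the left, heterozygous lines in the middle and wild-type lines on the right (x axis). Lines 3.34, 3.1 and 3.2 are the highest of their genotype for Dusp6, Spred1, Spry2 and Dusp4, and Spry4 lacks the peak among null lines.

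Other measures set these 3 lines apart as well. Lines 3.34, 3.1 and 3.2 had the lowest share of probe sets called present in their genotypes, at 32.9%, 28.4% and 30.4%, against 33.8% and 35.3% in the other null lines, 32.3% in heterozygous line 5, and 33.1% and 33.2% in the other wild-type lines. They also had the highest summed feeder signal of their genotypes, 3373, 6328 and 5053, although by the mean log2 value of those markers only wild-type line 3.2 led its genotype. The summed signal of 9 trophectoderm markers was 1343 in null line 3.34 against 431 and 371 in the other null lines, and 1334 in heterozygous line 3.1 against 626 in line 5, but wild-type line 3.2 had the lowest sum of its genotype, 1168. The 3′ to 5′ gap of the controls was also widest in null line 3.34 (3.71, against 2.68 in line 7 and 3.51 in line 3.38) and in heterozygous line 3.1 (4.80, against 4.49 in line 5), but in wild-type line 3.2 it was 4.75, between 4.86 in line 3 and 4.23 in line 3.3. The part of array quality, feeder RNA or trophectoderm RNA in the order of the lines was not tested.

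The stretches before the RefSeq starts of Dusp6 (plus strand, chr10:99262981-99263230), Spred1 (plus strand, chr2:117120821-117121070) and Spry2 (minus strand, chr14:105896820-105897069) of GRCm38.p6 are shown because these genes shared the order of lines. Capitals mark CCAAT boxes and GC boxes on either strand:
Dusp6: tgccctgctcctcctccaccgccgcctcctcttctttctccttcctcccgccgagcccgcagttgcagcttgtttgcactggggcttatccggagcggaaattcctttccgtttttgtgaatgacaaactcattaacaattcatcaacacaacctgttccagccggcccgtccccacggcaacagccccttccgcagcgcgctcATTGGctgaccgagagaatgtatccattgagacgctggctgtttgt
Spred1: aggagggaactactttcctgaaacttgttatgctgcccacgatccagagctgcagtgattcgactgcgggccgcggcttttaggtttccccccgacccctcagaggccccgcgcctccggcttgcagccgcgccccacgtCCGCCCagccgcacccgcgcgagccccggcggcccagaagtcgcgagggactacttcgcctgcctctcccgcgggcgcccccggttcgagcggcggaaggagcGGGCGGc
Spry2: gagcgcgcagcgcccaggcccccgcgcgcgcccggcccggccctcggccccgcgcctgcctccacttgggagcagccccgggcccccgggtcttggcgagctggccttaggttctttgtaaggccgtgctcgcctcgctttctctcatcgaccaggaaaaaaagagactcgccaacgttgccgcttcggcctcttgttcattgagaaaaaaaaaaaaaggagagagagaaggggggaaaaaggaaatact

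Dusp6 has 1 CCAAT box, Spred1 has 2 GC boxes, and the Spry2 window holds none of the motifs searched. The share of G and C was 56.4%, 70.8% and 62.4% in the windows of Dusp6, Spred1 and Spry2. No motif of those searched is common to the 3 windows.

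Between heterozygous and wild-type ESCs none of the 10 genes passed limma's test, as was the case for 0% of all genes, and 1 had an unadjusted p under 0.05 (3.85% of all genes). This was Fgfr1, with a log2 difference of −0.53 (95% interval −1.05 to −0.02, adjusted p = 0.997 from limma), and it was the 1 gene whose lines did not overlap, as for 17.3% of all genes (8.83% with the heterozygous lines lower). The median difference over the 10 genes was 0.04. The null and the heterozygous comparison share their wild-type lines, so their values are given side by side: for Fgf4 the differences from wild-type were 0.67 in null and 0.42 in heterozygous ESCs, for Etv4 they were 1.13 and 0.03, for Etv5 0.65 and −0.10, and for Dusp6 −1.09 and 0.06.

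Set directly against heterozygous lines, null lines did not overlap for Etv4, Etv5 and Fgfr2 on the RMA scale, as for 27.9% of all genes. On the linear signal scale these lines overlapped for Etv5 and Fgfr2. None of the 10 passed limma's test in this comparison, as for 0% of all genes, while 2 had an unadjusted p under 0.05 (13.8% of all genes). Etv4 came closest, with a log2 difference of 1.10 (95% interval 0.67 to 1.54, adjusted p = 0.0656 from limma). Leaving out wild-type line 3.2 brought this adjusted p from limma to 0.0424. The log2 difference stayed at 1.10, since that line is in neither group. Without that line 346 of all genes were called by limma, against 0 with all lines. Leaving out any other null or wild-type line kept the adjusted p of Etv4 from limma above 0.05, at up to 0.205. The means of Etv4 and Dusp6, the second at −1.15, differed by over 2-fold, against 2.42% of all genes.

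**Figure D4:**
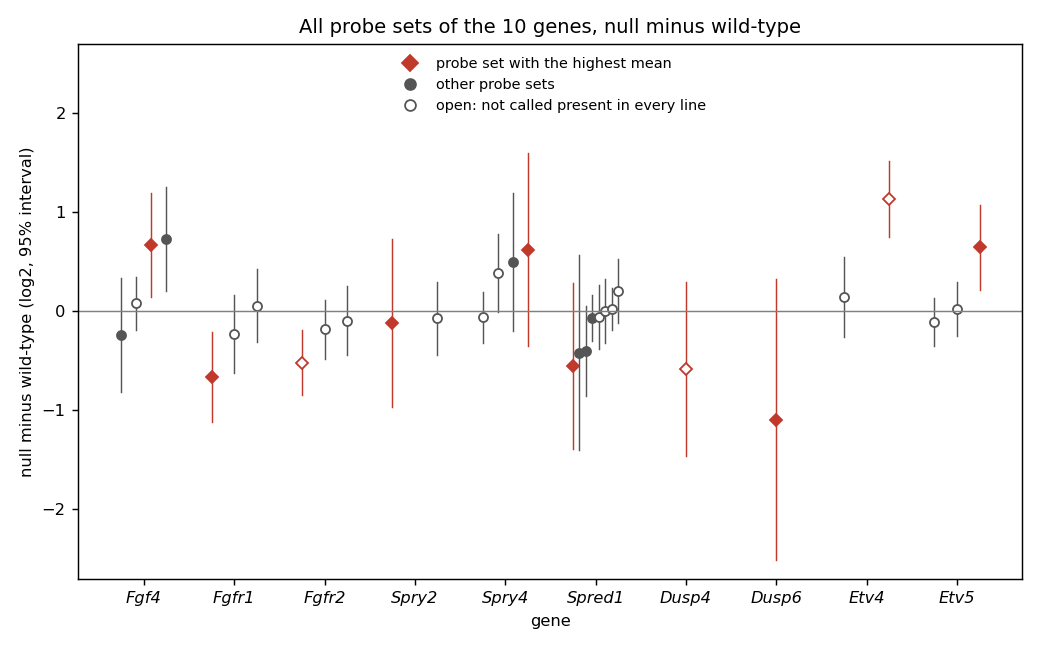
Log2 difference between null and wild-type ESCs (y axis, 95% intervals) for each of the 31 probe sets of the 10 genes (x axis), with diamonds for the probe set that represents the gene, circles for the others, and open symbols for probe sets not called present in every line. The intervals of 5 diamonds and of 1 circle, a second Fgf4 probe set at 0.73, leave out 0.

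Across all 31 probe sets, 13 were called present in every line and 7 in none. Dusp4 and Dusp6 have 1 probe set each, so there is no second probe set to set beside the first. Averaging all probe sets of a gene brought Etv5 to 0.19, Fgf4 to 0.31, Fgfr1 to −0.28 and Etv4 to 0.64 between null and wild-type ESCs, and Etv4 then had an adjusted p of 0.103 from limma. When the 3′ to 5′ gap of the controls entered the model, the sign turned for Dusp6 (0.49), Spred1 (0.67) and Spry2 (0.88), each with an adjusted p of 1.00 from limma, and no gene of the array was called. In the same model Fgf4 was at 0.13, Fgfr2 at −0.20, Etv5 at 0.37, Fgfr1 at −0.59, Dusp4 at −0.15, Spry4 at 1.20 and Etv4 at 1.58, all with an adjusted p of 1.00 from limma.

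The rest of the pathway gave no call between null and wild-type ESCs by limma. The counts and overlaps given below stand beside 16.4% of all genes with an unadjusted p under 0.05. Null and wild-type lines did not overlap for 22.4% of all genes. Among 14 measured receptors, co-receptors and adaptors, 3 had an unadjusted p under 0.05. Ptpn11, the phosphatase SHP2 that receptors need to activate RAS, was at 7.90, 8.06 and 7.98 in null lines, 8.16 and 8.24 in heterozygous lines, and 8.23, 8.64 and 8.45 in wild-type lines, with no overlap between null and wild-type lines (log2 difference −0.46, adjusted p = 0.113 from limma). Sos2, an exchange factor that loads RAS with GTP, differed by −0.54 (adjusted p = 0.109 from limma) at low values of 2.73 to 3.64.

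Of 21 other FGF ligands measured, 2 were detected in every line of a genotype, and 2 had an unadjusted p under 0.05. Fgf13, an intracellular relative of the ligands, differed by −0.22 and Fgf1 by −0.01 between null and wild-type ESCs. Of 12 measured genes of the RAS, RAF, MEK and ERK cascade, 10 had a lower mean in null ESCs and 1 had an unadjusted p under 0.05. Eras, the RAS protein of ESCs, differed by −0.51 and Map2k2, the kinase MEK2, by 0.50 (adjusted p = 0.227 and 0.401 from limma).

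Among 14 other feedback inhibitors, 2 had an unadjusted p under 0.05. Spry1 was at 6.22, 6.66 and 5.52 in null lines 7, 3.34 and 3.38, at 6.97 and 7.22 in heterozygous lines 5 and 3.1, and at 6.75, 7.97 and 6.58 in wild-type lines 3, 3.2 and 3.3. It followed the same order of lines as Dusp6, and its log2 difference between null and wild-type ESCs was −0.97 (95% interval −1.87 to −0.07, adjusted p = 0.268 from limma). Dusp9, an ERK phosphatase, ran against that order and was at 6.70, 5.95 and 6.73 in null lines, 6.02 and 4.84 in heterozygous lines, and 6.28, 4.58 and 6.62 in wild-type lines. Of the 6 detected genes of this list, 2 (Spry1 and Spred2) had the order of Dusp6 and 3 (Dusp1, Dusp9 and Dusp16) its mirror, against 9.53% and 11.5% of detected genes.

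Of 15 immediate early targets of ERK, 4 had an unadjusted p under 0.05. Ier3 was at 8.74, 7.93 and 8.80 in null lines 7, 3.34 and 3.38, at 7.71 and 6.24 in heterozygous lines 5 and 3.1, and at 7.65, 6.28 and 7.19 in wild-type lines 3, 3.2 and 3.3. Null lines were above all others, with a log2 difference of 1.45 from wild-type ESCs (95% interval 0.41 to 2.50, adjusted p = 0.156 from limma). Ier2 was also higher in every null than in every wild-type line, by 0.71 (adjusted p = 0.141 from limma). Of 17 other ETS factors 1 had an unadjusted p under 0.05, with Ets2 at a difference of 0.59 and Elk3 at −0.44.

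The genes whose level followed a member most closely over the 8 lines were found by Pearson's r among detected genes, for the 3 members with the greatest difference between null and wild-type ESCs. For Etv4 they were Plcb4, Bcl3 and Itpk1, with r of 0.964, 0.963 and 0.953. Itpk1, a kinase of inositol phosphates, was at 8.09, 8.51 and 7.80 in null lines, 7.41 and 7.01 in heterozygous lines, and 7.27, 6.96 and 7.23 in wild-type lines. For Dusp6 they were E2f7, Polrmt and Gpx4, with r of 0.992, 0.989 and 0.973. E2f7, a repressor of the E2F family, was at 5.47, 6.46 and 5.46 in null lines, 6.07 and 6.71 in heterozygous lines, and 6.10, 6.92 and 6.27 in wild-type lines. For Fgf4 they were Cbx2, Atp5g1 and Psmc4, with r of 0.962, 0.961 and 0.960. All of these points share the same 8 arrays, and these are the highest values of r among 7306 genes over 8 lines.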

How the data were processed

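RNA of 8 ESC lines was measured on Affymetrix whole-genome mouse arrays. The log2 values were deposited by the authors after joint RMA normalization of the arrays. They also deposited, for each array, linear signal values with detection calls and a detection p-value from the Affymetrix software. The sources used here state neither the RMA version nor the scaling of the signal. The log2 values of an array followed the signal values of its own array best (8 of 8). Of 45101 probe sets, 64 controls were left out. By the platform annotation, 34945 of the rest name 1 gene, 932 name several genes and 9160 have none listed.

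Models with 1 mean per genotype were fitted to 18193 genes on 8 arrays by lmFit and eBayes (limma 3.58.1, R 4.3.3), with p-values adjusted by Benjamini-Hochberg over the genes, and once more to all probe sets. A gene was called at an adjusted p under 0.05. The fit was tested on simulated data. Gene lists were described by counts and medians with no set test. Named genes are the 10 members, each list's called genes or, with none called, the 2 detected genes with the greatest difference between null and wild-type ESCs, and the 3 genes nearest to each of 3 members. Spred2, Dusp1, Dusp16, Sos1, Gab1, Nras, Pebp1, Srf and Phlda1 were named after their values were seen. The members and lists were chosen with earlier results of these data known. Promoter windows came from RefSeq (GRCm38.p6), and the windows' CCAAT, GC and TATA motifs were added after the sequences were seen. The study names 2 litters that gave a null and a wild-type line each, and these pairs were fitted with litter as a block. Deviations from genotype means correlated between paired lines with r of 0.10 and 0.038 across 18193 genes, which are not independent replicates. The signal alternative used log2(signal + 1) centred on each array's median. Tables and plots were made in Python 3.11.15 with pandas 2.3.3, numpy 2.4.6 and matplotlib 3.10.9.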

Additional observations from a re-analysis of the deposited data

How the results depend on the processing

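Of the 30 differences (10 genes, 3 comparisons), 12 kept their direction under every one of up to 18 alternatives, 8 of which left out 1 line each. Between null and wild-type ESCs 7 of 10 did so, all but Spry2, Spred1 and Dusp6. The alternative without wild-type line 3.2 and heterozygous line 3.1, on whose arrays the fewest probe sets were called present, was chosen after seeing the data, as were both with litter pairs. Replicate numbers follow the order of accessions and pair no lines. With litter as a replicate block over the 4 paired lines, limma called 2 of the 10 genes between null and wild-type ESCs, Dusp6 and Spry4 but not Etv4, and 178 genes in all. The same lines without the block also gave 2 of the 10, the same genes, and 198 in all. The number of lines and the dimness of Etv4 and Dusp4 limit what these arrays can show. The cause of the changes below was not tested.

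Between null and wild-type ESCs the number of the 10 genes called by limma was 0 with the mean of all probe sets of a gene, with the signal values, with detected genes only (which leaves out Etv4), with the 3′ minus 5′ covariate and without lines 3.2 and 3.1, and it ranged from 0 to 1 when 1 line was left out. Those past 2-fold were 1 with the mean of probe sets, the signal values or detected genes only, and 1 to 2 with 1 line left out. Over all genes 206 were called, 0 with signal values or the covariate, 442 with detected genes only, 5 without lines 3.2 and 3.1, and 2 to 208 with 1 line left out (4 without wild-type line 3.2, 3 without null line 7 and 2 without wild-type line 3). With the covariate Spry2 turned to 0.88, Spred1 to 0.67 and Dusp6 to 0.49. Spry2 was at 0.26 without lines 3.2 and 3.1 and ranged from −0.45 to 0.26 with 1 line left out.

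Between heterozygous and wild-type ESCs 1 probe set was called when all were tested, and 0 to 2 genes with 1 line left out, when 0 to 1 of the 10 passed 2-fold. The mean of probe sets turned Fgfr2 to 0.021 and Spred1 to −0.0025, and the signal values turned Fgfr1 to 0.0097, Etv4 to −0.25 and Etv5 to 0.16. With 1 line left out the ranges were −0.11 to 0.50 for Spred1, −0.44 to 0.57 for Dusp6, −0.084 to 0.58 for Spry2, −0.083 to 0.16 for Etv4, −0.035 to 0.87 for Fgf4 and −0.29 to 0.087 for Etv5.

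Between null and heterozygous ESCs the genes called were 0, against 20 with the mean of probe sets, 166 with detected genes only, 36 with an intensity trend, 96 with only these genotypes fitted, 5 of all probe sets, and 0 to 346 with 1 line left out. Of the 10 genes 0 to 1 were called with 1 line left out. Past 2-fold were 1 with the mean of probe sets, detected genes only or the covariate, 0 without lines 3.2 and 3.1, and 0 to 2 with 1 line left out. The mean of probe sets turned Fgfr1 to 0.021 and the signal values turned Dusp4 to −0.11. The covariate turned Fgf4 to −0.30, Spry2 to 0.70, Spry4 to 0.50, Spred1 to 0.57 and Dusp6 to 0.47. Without lines 3.2 and 3.1 Fgf4 was at −0.20 and Spry4 at 0.21. With 1 line left out the ranges were −0.24 to 0.46 for Dusp4, −0.20 to 0.70 for Fgf4 and −0.40 to 0.21 for Spry4.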
